A study of Mus musculus with 6 samples.

Results

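Genes of mitosis, the kinetochore and cytokinesis were examined in the neonatal mouse retina. The 38 genes are the named G2/M kinases and cyclins, spindle checkpoint proteins, partners of the anaphase-promoting complex, kinetochore and passenger proteins, spindle motors, cytokinesis proteins and chromosome structure genes, and they were chosen by name and not by their values. Of these, 36 had at least 1 probe set that the annotation table pairs with that gene alone, among 12393 genes named this way, and the probe sets of the 36 numbered 65. Ccnb1, the main mitotic B-type cyclin, and Cdca8, a subunit of the chromosomal passenger complex, had no probe set named here and have no values.

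Whole retinas were taken at postnatal day 4 (P4) from 3 wildtype mice and 3 nhlh2 knockout mice, all on a mixed C57/129 background, and the RNA of each mouse was hybridised to 1 Affymetrix 430A 2.0 array. The series design pairs wildtype 1, 2 and 3 with knockout 1, 2 and 3 as littermates. Nhlh2 is a basic helix-loop-helix transcription factor of developing neurons, and the comparison asks how its loss changes retinal expression. No probe set was named for Nhlh2, so the knockout could not be checked on its own gene. How the knockout allele was made was not given in the sources used here. The retina is a mixture of cells, and in such bulk RNA fewer cells of a type and less RNA per cell cannot be told apart.

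A dividing cell builds up cyclin A and B with Cdk1 to enter mitosis, assembles kinetochores on its centromeres, and holds anaphase until the spindle checkpoint is satisfied. The anaphase-promoting complex with Cdc20 then destroys cyclin B and securin, the chromosomes separate, and the central spindle guides cleavage of the cell. In the mouse retina at P4 the progenitor cells of the neuroblast layer are still dividing and produce mainly rods, bipolar cells and Müller glia, while ganglion cells, horizontal cells and most amacrine cells are already postmitotic.

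The promoters of many mitotic genes carry the same short elements. The cell cycle homology region (CHR, searched as TTTGAA or TTCGAA) is bound by the DREAM and MuvB complexes, and the CCAAT box by NF-Y. RefSeq promoter windows (GRCm38.p6, from 250 bases before the gene start to 50 bases from it) were at hand for 32 of the 38 genes, and both strands were searched. The following windows are those of Cdk1, the mitotic kinase, of Ccnb2, the measured B-type cyclin, of the proliferation marker Mki67, and of the 3 genes with the largest differences between genotypes in the 5 arrays that remain without knockout 2, Ube2c, Ndc80 and Nek2. They are written 5′ to 3′ along the gene, with CHR and CCAAT matches on either strand in capitals.
Cdk1, chr10:69352863-69353162, minus strand: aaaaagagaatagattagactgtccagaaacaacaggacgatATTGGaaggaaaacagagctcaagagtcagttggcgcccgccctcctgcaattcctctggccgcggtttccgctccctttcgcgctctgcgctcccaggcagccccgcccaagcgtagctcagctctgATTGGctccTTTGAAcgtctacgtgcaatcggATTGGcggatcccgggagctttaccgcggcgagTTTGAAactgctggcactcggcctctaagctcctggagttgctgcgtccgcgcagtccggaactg
Ccnb2, chr9:70421505-70421804, minus strand: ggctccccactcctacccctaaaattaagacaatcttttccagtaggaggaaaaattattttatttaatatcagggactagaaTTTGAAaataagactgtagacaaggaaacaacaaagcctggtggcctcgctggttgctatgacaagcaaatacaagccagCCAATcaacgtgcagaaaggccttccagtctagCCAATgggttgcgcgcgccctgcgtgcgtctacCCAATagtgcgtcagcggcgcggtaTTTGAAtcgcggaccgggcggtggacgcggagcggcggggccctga
Mki67, chr7:135716330-135716629, minus strand: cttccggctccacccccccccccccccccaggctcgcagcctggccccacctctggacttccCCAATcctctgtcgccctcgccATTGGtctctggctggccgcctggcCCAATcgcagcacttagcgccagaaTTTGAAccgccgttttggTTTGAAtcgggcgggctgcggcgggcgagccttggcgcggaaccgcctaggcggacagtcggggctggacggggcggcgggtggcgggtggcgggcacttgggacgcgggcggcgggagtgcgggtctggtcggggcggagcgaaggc
Ube2c, chr2:164769679-164769978, plus strand: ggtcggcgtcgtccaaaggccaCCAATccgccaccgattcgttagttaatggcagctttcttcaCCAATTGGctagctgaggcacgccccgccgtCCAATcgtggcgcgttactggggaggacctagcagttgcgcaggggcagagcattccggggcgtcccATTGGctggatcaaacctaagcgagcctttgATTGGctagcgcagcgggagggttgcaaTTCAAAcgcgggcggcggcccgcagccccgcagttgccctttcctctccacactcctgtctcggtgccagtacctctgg
Ndc80, chr17:71526808-71527107, minus strand: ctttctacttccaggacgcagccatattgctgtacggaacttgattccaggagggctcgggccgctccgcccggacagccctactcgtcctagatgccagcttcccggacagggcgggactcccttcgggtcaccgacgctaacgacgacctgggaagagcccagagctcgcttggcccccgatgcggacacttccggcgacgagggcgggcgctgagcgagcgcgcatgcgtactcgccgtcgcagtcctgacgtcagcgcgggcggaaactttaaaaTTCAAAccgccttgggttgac
Nek2, chr1:191821223-191821522, plus strand: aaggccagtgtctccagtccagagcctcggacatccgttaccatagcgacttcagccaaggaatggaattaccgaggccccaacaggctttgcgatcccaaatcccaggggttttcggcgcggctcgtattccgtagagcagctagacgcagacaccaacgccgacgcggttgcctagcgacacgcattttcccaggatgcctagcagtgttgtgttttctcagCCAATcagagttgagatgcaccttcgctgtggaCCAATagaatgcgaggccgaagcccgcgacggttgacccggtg
In the Cdk1 window a CHR begins 15 bases before the gene start, with a CCAAT box on the opposite strand beginning 48 bases before it. Ccnb2 has 3 CCAAT boxes on the same strand, spaced 33 bases apart, with a CHR at base 5 of the gene. Ndc80 has a CHR at base 30 and no CCAAT box, and Nek2 has 2 CCAAT boxes and no CHR.

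A CHR was present in 25 of the 32 windows (78.1%), against 21.7% of 27025 genes with a window and 17.3% of the genes on the array. A CCAAT box was present in 27 of 32 (84.4%), against 41.1% of all genes, and both elements in 23 of 32 (71.9%), against 8.61%. Of the 25 genes with a CHR, 23 had one within 50 bases of the gene start. The same share over all genes with a CHR was not computed, so this closeness is not shown to be particular to mitotic genes. CCAAT boxes on the same strand that began 31 to 34 bases apart, a spacing chosen after the positions were seen, occurred in Cdk1, Ccnb1, Ccnb2, Cdca8, Aurka, Nek2 and Ube2c, which are 21.9% of the 32 genes, against 1.04% of all genes. The E2F core searched as TTTCCCGC or TTTGGCGC was in 0 of 32 windows and in 1.8% of all genes. In 31 genes of S phase and DNA replication the order was the other way round, with the E2F core in 11 (35.5%) and the CHR in 6 (19.4%). That CHR share was near the 21.7% of all genes. The CCAAT box was in 19 of these 31 (61.3%), so a share above the 41.1% of all genes was not particular to mitotic genes. Both elements were in 5 of the 31 (16.1%). These short words occur by chance, and a match is a description of the letters and not a bound site.

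**Figure D1:**
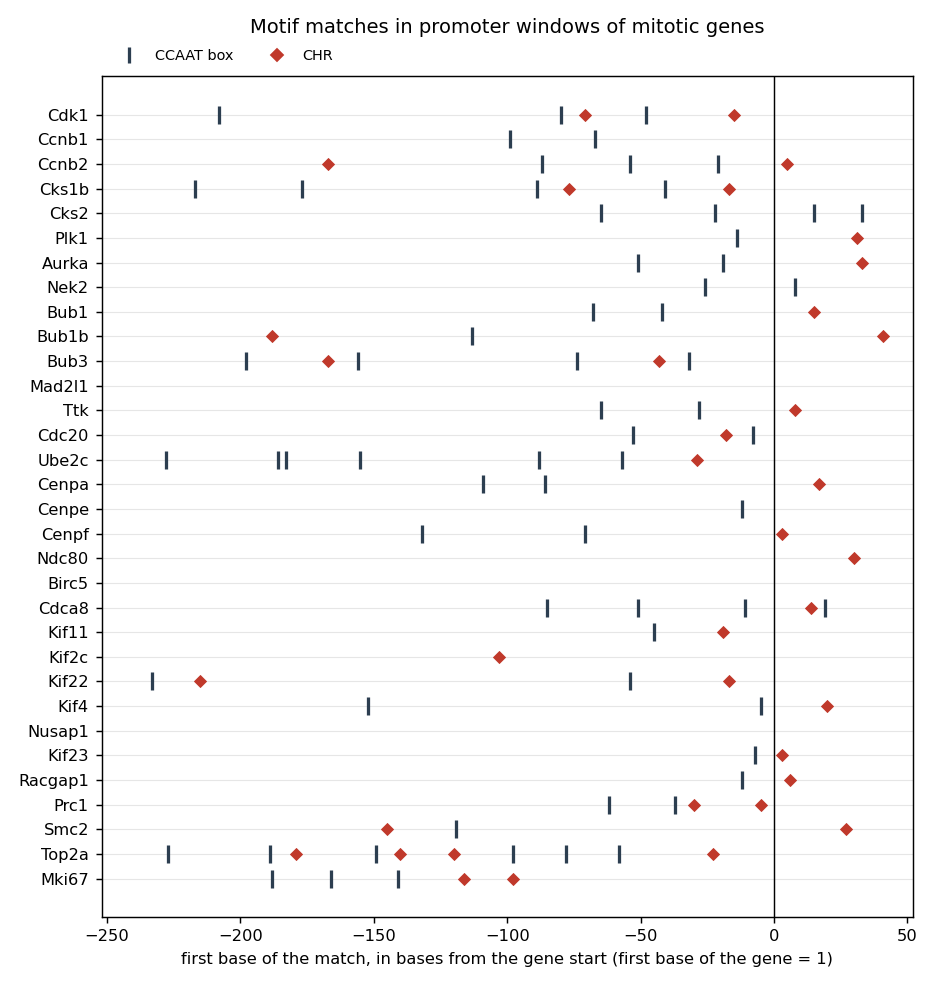
Positions of CHR (red diamonds) and CCAAT (dark bars) matches in the promoter windows of 32 mitotic genes, in bases from the gene start. Diamonds lie close to the start in most genes, with CCAAT boxes mostly upstream of them. Bub3 and Prc1 each have 2 annotated starts, whose matches share a line.

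The signals are MAS 5.0 intensities on a linear scale. The arrays were scaled to a common 75th percentile, since that percentile ran from 198 to 330 in 5 arrays and was 22.3 in knockout 2. That array also stood apart in its RNA and its profile: its 3′ to 5′ ratio for Actb was 274, against 1.38 to 1.56 in the other 5, and its correlation with any other array was at most 0.690, while the 5 others correlated at 0.932 or more. Wildtype 1 differed from the other wildtype arrays in lens genes, with a summed signal of 10266 over 15 lens markers against 186 and 247 in wildtype 2 and 3, 176 in knockout 1 and 272 in knockout 3. Of the measured retinal progenitor markers, 15 of 16 were above the array's median in all 3 wildtype arrays, against 51.2% of all genes. So were 13 of 14 rod and photoreceptor markers and 14 of 18 ganglion, amacrine and horizontal cell markers. Both fits, with and without knockout 2, are given for the genes the results turn on, and the main counts are also given without wildtype 1.

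The mitotic genes were strongly represented in the wildtype P4 retina. Of the 36, 34 had a signal above the array's median in all 3 wildtype arrays, against 51.2% of all genes, and 20 were above the 75th percentile in all 3, against 25.4%. The remaining 2, Cenpe and Ndc80, were close to the median. For each gene the probe set with the highest mean signal was used, a choice that favours high values, and the same choice was made for all genes. Signals of different probe sets depend on their own probes, so percentiles give the place of a probe set in its array and not a ranking of transcript numbers.

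**Figure D2:**
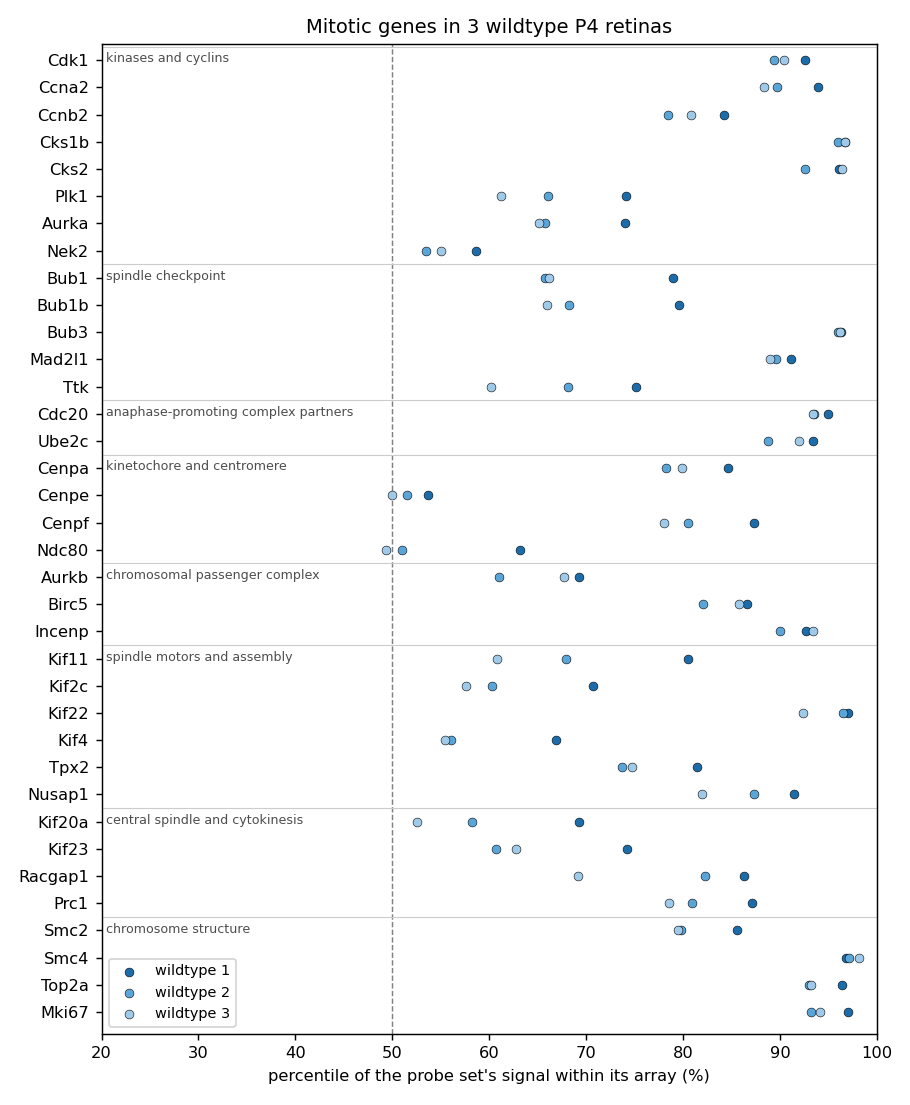
Percentile of the signal of each mitotic gene's probe set within its array, for the 3 wildtype P4 retinas, by role. The dashed line is the array's median. The dots of wildtype 1 lie to the right of the others for most genes, and only Cenpe and Ndc80 reach the median line.

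Mki67, which coats mitotic chromosomes and marks cycling cells, gave scaled signals of 1768, 967 and 1216 in wildtype 1, 2 and 3, in the 94.8th ± 1.96 percentile (SD, n = 3). Top2a, the topoisomerase that untangles sister chromatids, gave 1577, 942 and 1072, and Cdk1 gave 911, 651 and 777. Each of these markers was highest in wildtype 1 and lowest in wildtype 2. The highest mean percentiles belonged to Smc4 (97.4 ± 0.731), a core condensin subunit, Cks1b (96.5 ± 0.419) and Cks2 (95.0 ± 2.11), small subunits of the cyclin-dependent kinases, Bub3 (96.2 ± 0.185) of the spindle checkpoint, and Kif22 (95.3 ± 2.52), a chromokinesin. The Kif22 and Bub3 values come from probe sets whose suffix marks probes that may also bind other transcripts. For Kif22 this probe set read 1779, 1560 and 966 in the wildtype arrays, while its plain probe set read 225, 150 and 152.

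At the lower end stood Cenpe (51.7 ± 1.88), the kinetochore motor, Ndc80 (54.5 ± 7.53), which anchors microtubules in the outer kinetochore, Nek2 (55.7 ± 2.63), a centrosomal kinase, the chromokinesin Kif4 (59.5 ± 6.44) and Kif20a (60.0 ± 8.54), a central spindle kinesin. In scaled signal, Cenpe read 93.2, 84.4 and 72.3 and Ndc80 read 152, 82.5 and 70.1 in wildtype 1, 2 and 3. Nek2 read 120, 93.6 and 97.3, Kif4 read 182, 106 and 99.7, and Kif20a read 203, 120 and 84.2. All 5 were highest in wildtype 1.

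By role, the median percentile was 92.7 for the anaphase-promoting complex partners Cdc20 and Ube2c, 94.5 for the 4 chromosome structure genes and 85.9 for the 8 kinases and cyclins. It was 84.8 for the 3 passenger complex genes, 73.2 for the 6 spindle motors and assembly factors, 72.6 for the 4 cytokinesis genes, 71.3 for the 5 checkpoint genes and 67.7 for the 4 kinetochore genes. Within roles the spread was wide: among checkpoint genes Bub3 and Mad2l1, which hold back Cdc20, stood at 96.2 and 89.9, and the kinase Ttk at 67.8.

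The spread among the 3 wildtype retinas was wider in these genes than in genes at large. Of the 36, 31 were highest in wildtype 1, against 28.7% of the 6923 genes that passed the filter on low signal, which all 36 did. The exceptions were Cks1b, Cks2, Bub3, Incenp and Smc4, all highest in wildtype 3. The ratio of the highest to the lowest wildtype signal had a median of 1.67 over the 36, from 1.18 (Mad2l1) to 2.73 (Kif11, the motor that separates spindle poles), against 1.34 over all genes. Between wildtype 2 and 3 alone the median ratio was 1.18, against 1.23 over all genes, so by this median the wider spread came with wildtype 1. Some genes were also lower in wildtype 3 than in wildtype 2. Kif11 read 360, 190 and 132, and Racgap1, a central spindle protein, read 518, 394 and 201. The log2 medians relative to the wildtype mean were -0.15 in wildtype 2 and -0.45 in wildtype 3 for the spindle motors and assembly factors. For the cytokinesis genes they were -0.11 and -0.44. Relative to the wildtype mean, the median of the 36 genes was 0.39 in wildtype 1, -0.21 in wildtype 2 and -0.18 in wildtype 3 on the log2 scale, while over all genes these medians were -0.02, -0.05 and 0.07.

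The rod and photoreceptor markers had their lowest summed signal in wildtype 1. None of the 13 that passed was highest there, and they summed to 22212 in wildtype 1, 25643 in wildtype 2 and 36711 in wildtype 3. The 5 pigment epithelium markers that passed stood at 0.41, 0.03 and -0.47 (log2 medians relative to the wildtype mean), with 3 of 5 highest in wildtype 1. Their summed signals, 5483, 5351 and 6867, rested largely on Ttr, which read 3128.5, 3368.7 and 5529.6. Tyr, Tyrp1 and Dct each fell from wildtype 1 to wildtype 3, and Pmel read 908, 964 and 621. Rpe65, a defining gene of that epithelium, did not pass the filter, at 31.6, 11.7 and 17.0. The 31 S phase genes went with the mitotic genes, at 0.25, -0.13 and -0.13 (log2 medians relative to the wildtype mean), with 26 highest in wildtype 1. The part that lens or pigment epithelium RNA or the share of rods has in these wildtype differences was not tested.

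**Figure D3:**
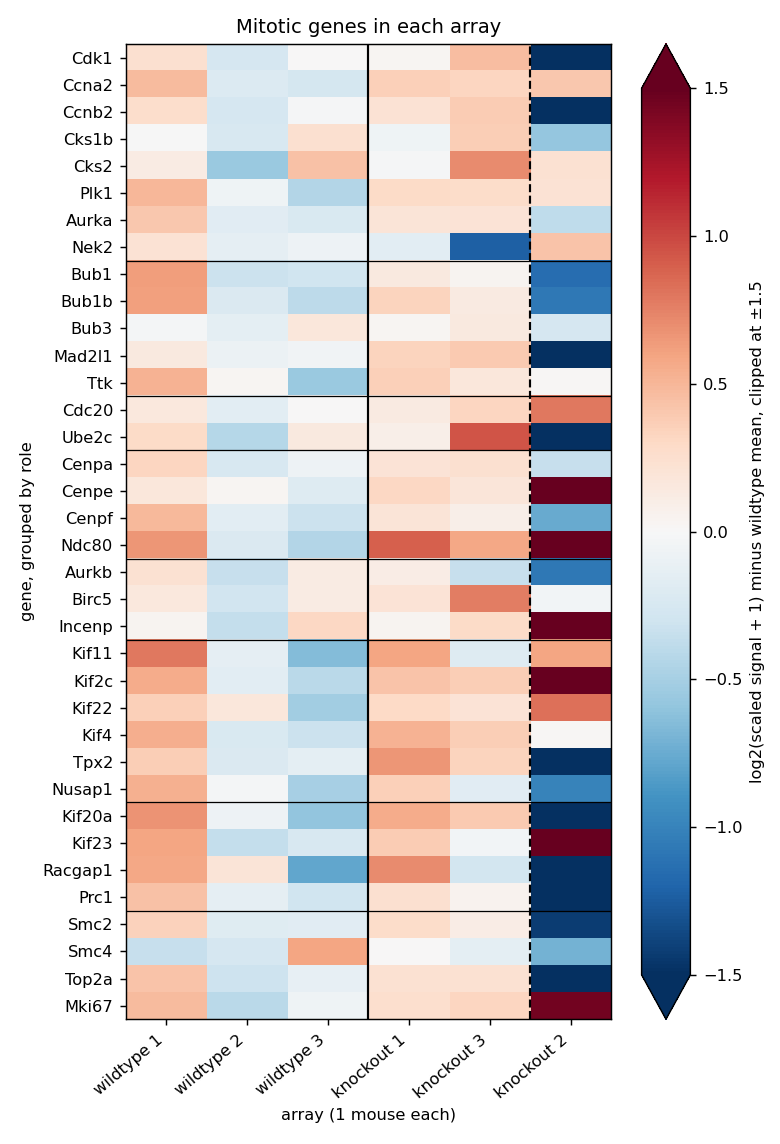
Log2 scaled signal of each mitotic gene minus its wildtype mean, in each of the 6 arrays (1 mouse each), with roles separated by lines and colours clipped at 1.5. Wildtype 1, knockout 1 and knockout 3 are mostly red, wildtype 2 and 3 mostly blue, and knockout 2 holds extreme values of both signs.

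No mitotic gene passed the test between knockout and wildtype. With all 6 arrays, limma with Benjamini-Hochberg adjustment called 0 of 11610 probe sets (0%) at an adjusted p under 0.05 and 0 of the 36 genes. The smallest adjusted p over all probe sets was 0.766, and 10 probe sets had an unadjusted p under 0.05, none of them the one used for a mitotic gene. Further probe sets of the mitotic genes were not looked up in these counts. Without knockout 2 the same fit again called 0 probe sets (0%) and 0 of the 36 genes. The smallest adjusted p of that limma fit was 0.99987, and 82 probe sets had an unadjusted p under 0.05, again none of them the one used for a mitotic gene. With 6 arrays 17 of the 36 were higher and 19 lower in the knockout, with a median log2 difference of -0.06. With 5 arrays 33 were higher and 3 lower, with a median of 0.23, while the median over all genes was 0.01. For 33 of the 36 the 5-array difference was no larger than the range of the 3 wildtype arrays, as it was for 88.0% of all genes. Against wildtype 2 and 3 alone, 10 of the 36 differences were within the wildtype range, against 71.6% of all genes. The standard error of a single mitotic gene's log2 difference had a median of 0.47 with 6 arrays and 0.28 with 5.

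Knockouts 1 and 3 lay between the wildtype retinas. Relative to the wildtype mean the median of the mitotic genes was 0.25 in knockout 1 and 0.23 in knockout 3, below wildtype 1 and above wildtype 2 and 3. Both knockouts lay above both wildtype 2 and wildtype 3 in 25 of the 36 genes, against 12.5% of all genes, and above all 3 wildtypes in 3 (Mad2l1, Cenpe and Birc5), against 5.73%. Both lay below all 3 wildtypes in 1 gene, Nek2, against 5.91%. The count against wildtype 2 and 3 was not planned. It leaves out wildtype 1, the highest wildtype in 31 of the 36 genes, and is a description only. Leaving out wildtype 1 as well as knockout 2 gave a median of 0.43, with 33 of 36 higher. In that limma fit 0 were called, and 6 of the 36 genes and 84 of all 11610 probe sets had an unadjusted p under 0.05. The 5-array median was 0.12 (30 of 36 higher) without wildtype 2 and 0.18 (26 of 36) without wildtype 3, so its sign was the same in each case and its size differed.

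The littermate pairs went in different directions. In pair 1, 9 of the 36 genes were higher in the knockout, against 47.7% of all genes, with a median log2 difference of -0.12. In pair 3, 31 of the 36 were higher, against 48.8%, with a median of 0.41. In pair 2, which holds the array that stands apart, 15 were higher, against 52.3%, with differences from -6.03 (Ube2c) to 3.06 (Incenp). Of the 36, 25 were lower in knockout 1 and higher in knockout 3 than in their littermates, against 26% of all genes. Only 6 were higher in both pairs (Mad2l1, Cenpe, Ndc80, Birc5, Tpx2 and Racgap1), 2 were lower in both (Nek2 and Aurkb), and 3 were higher in pair 1 and lower in pair 3 (Bub3, Incenp and Smc4). Each pair is 1 mouse of each genotype, so these differences have no test. Over all 54 probe sets of these genes that passed the filter, 13 were higher in knockout 1 and 45 in knockout 3.

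**Figure D4:**
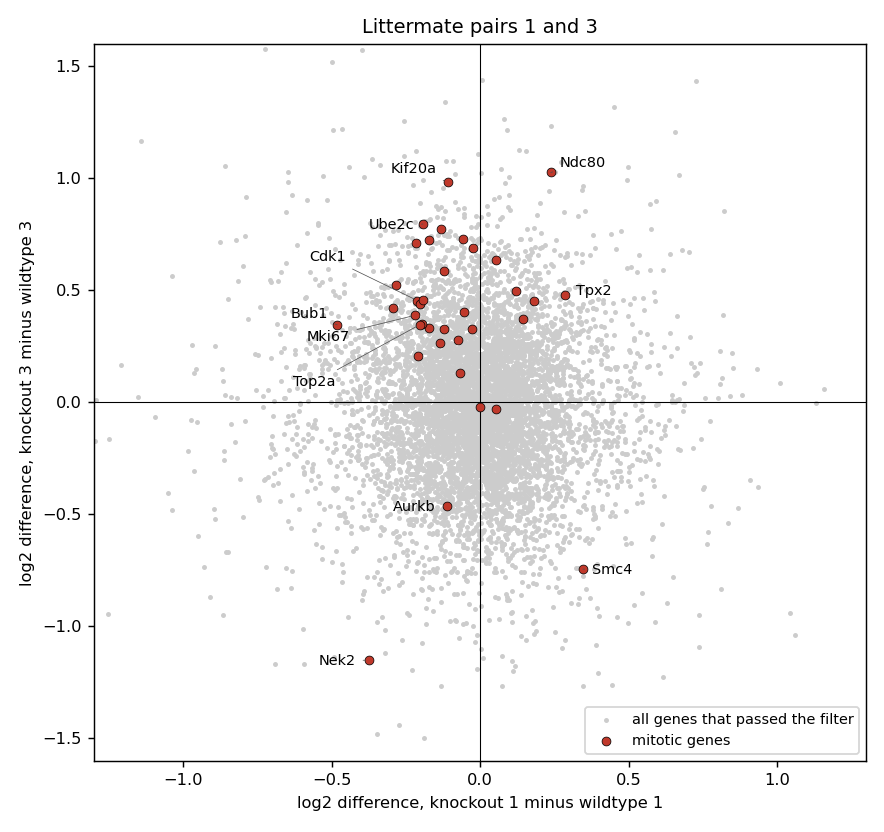
Log2 difference, knockout minus wildtype littermate, in pair 1 (horizontal) and pair 3 (vertical) for the 36 mitotic genes (red) and all genes that passed the filter (grey; 26 genes lie outside the axes). Most red points lie in the upper left, lower in knockout 1 and higher in knockout 3.

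Markers of proliferation showed this pattern plainly. Mki67 read 1768 in wildtype 1 and 1517 in knockout 1, 1216 in wildtype 3 and 1592 in knockout 3, and 967 in wildtype 2 and 3496 in knockout 2. Top2a read 1577 and 1370 in pair 1, 1072 and 1364 in pair 3, and 942 and 309 in pair 2. Cdk1 read 911 and 787 in pair 1, 777 and 1065 in pair 3, and 651 and 30.2 in pair 2. For all 3 the knockout was lower than its littermate in pair 1 and higher in pair 3, and knockouts 1 and 3 both lay above wildtype 2 and 3. With 5 arrays their log2 differences were 0.28 ± 0.28 (SE) for Mki67, 0.23 ± 0.26 for Top2a and 0.25 ± 0.24 for Cdk1. With 6 arrays they were 0.67, -0.49 and -1.38, so that the sign turned for Top2a and Cdk1 when knockout 2 was included.

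The largest 5-array difference belonged to Ndc80. Its signal was 152, 82.5 and 70.1 in wildtype 1, 2 and 3, and 179, 345 and 144 in knockout 1, 2 and 3. Knockout 3 thus lay below wildtype 1, and the groups overlapped. The log2 difference was 0.74 ± 0.35 (SE) with 5 arrays (limma, unadjusted p = 0.0805, adjusted p = 0.99987) and 1.11 with 6 (unadjusted p = 0.0572, adjusted p = 0.766), the smallest p of the 36 genes in both limma fits. Ube2c, the ubiquitin-conjugating enzyme that works with the anaphase-promoting complex, read 1011, 615 and 921 in the wildtypes and 884, 8.45 and 1600 in the knockouts. Its 5-array log2 difference was 0.52 ± 0.34. Knockout 3 was above every other array and knockout 2 almost without signal, so that the 6-array difference was -1.81.

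Nek2 went the other way. It read 120, 93.6 and 97.3 in the wildtypes, 92.2 in knockout 1, 43.3 in knockout 3 and 139 in knockout 2. Knockouts 1 and 3 were below all 3 wildtypes, with a log2 difference of -0.37 in pair 1 and -1.15 in pair 3, while knockout 2 was above them. The 5-array difference was -0.69 ± 0.34 (limma, unadjusted p = 0.0851, adjusted p = 0.99987), and with 6 arrays -0.32. Nek2 has 1 probe set on the array, near the array's median.

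Among the other kinases and cyclins, all 8 measured genes were lower in knockout 1 than in wildtype 1, from -0.05 (Ccnb2) to -0.37 (Nek2), and 7 were higher in knockout 3 than in wildtype 3, from 0.13 (Cks1b) to 0.71 (Plk1, the polo-like kinase of mitotic entry). Ccna2, which acts from S phase to early mitosis, read 1076, 669 and 643 in the wildtypes and 989, 1025 and 966 in knockout 1, 2 and 3. On this probe set all 3 knockouts lay above wildtype 2 and 3 and below wildtype 1, whereas a dimmer Ccna2 probe set read 382 in knockout 2, below its wildtype values of 843, 562 and 492.

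The checkpoint kinase Bub1 had the lowest difference of pair 1, -0.48, with 333 in wildtype 1 and 238 in knockout 1. In pair 3 it read 174 and 221, a difference of 0.35, and in pair 2 171 and 96.6. Mad2l1, by contrast, was higher in knockouts 1 and 3, at 891 and 934 against 785, 667 and 682 in the wildtypes, and read 43.5 in knockout 2. Its 5-array difference of 0.36 ± 0.18 (SE) had an unadjusted limma p of 0.0923 and an adjusted p of 0.99987, and with 6 arrays the difference was -1.09.

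At the kinetochore all 4 measured genes were higher in knockout 3 than in wildtype 3 and 2 of 4 were higher in knockout 1 than in wildtype 1. Cenpe read 103 in knockout 1 and 93.9 in knockout 3, just above the 93.2 of wildtype 1, and 245 in knockout 2. Cenpf, a large protein of the outer kinetochore, read 558, 357 and 318 in the wildtypes, 455 and 425 in knockout 1 and 3, and 235 in knockout 2. Its pair differences were -0.29 and 0.42.

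The passenger complex places Aurora B at centromeres and later at the midzone. Its kinase Aurkb read 203, 136 and 188 in the wildtypes and 188, 82.1 and 136 in the knockouts, lower than the littermate in all 3 pairs, with a 5-array log2 difference of -0.12 ± 0.26. A second Aurkb probe set was brighter in every array except knockout 2. It read 292, 175 and 212 in the wildtypes and 239, 6.04 and 195 in the knockouts, also lower in all 3 pairs. In pair 3 it differed by -0.12, against -0.46 on the probe set used. The survivin subunit Birc5 read 529, 390 and 519 in the wildtypes and 549, 461 and 807 in the knockouts, higher than the littermate in all 3. The centromere-binding subunit Incenp read 923 in both wildtype 1 and knockout 1, 1113 in wildtype 3 and 1096 in knockout 3, and 700 in wildtype 2 against 5831 in knockout 2. The 3 measured subunits thus had no common direction.

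All 6 spindle motors and assembly factors were higher in knockout 3 than in wildtype 3, by 0.33 (Nusap1) to 0.78 (Kif2c). Tpx2, which activates Aurora A and nucleates spindle microtubules, was the one that was also higher in knockout 1. It read 381, 253 and 265 in the wildtypes, 465 and 370 in knockout 1 and 3, and 103 in knockout 2, with a log2 difference of 0.49 ± 0.25 with 5 arrays and -0.18 with 6. Kif4 read 179 and 161 in knockout 1 and 3, close to wildtype 1, and 126 in knockout 2.

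The 4 cytokinesis genes were higher in knockout 3 than in wildtype 3 without exception, and 3 of 4 were lower in knockout 1 than in wildtype 1. Kif20a, which carries passenger proteins to the midzone, read 84.2 in wildtype 3 and 167 in knockout 3, a difference of 0.98, and 203 and 188 in pair 1. In knockout 2 its signal was 6.04, against 120 in wildtype 2.

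Of the chromosome structure genes, Smc4 ran against the rest. It read 1686, 1791 and 3227 in the wildtypes and 2142, 1302 and 1926 in the knockouts, so that pair 1 differed by 0.35 and pair 3 by -0.74. Its condensin partner Smc2 read 494, 343 and 346 in the wildtypes and 469 and 420 in knockout 1 and 3, with the same order as most mitotic genes.

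Different probe sets of a gene did not always give the same sign. For Smc4, another probe set read 427 and 440 in pair 1 and 179 and 241 in pair 3, and the third read 1249 and 1099 in pair 1 and 1030 and 1100 in pair 3, so that in pair 3 both were higher in the knockout where the brightest was lower. For Cdc20, the activator of the anaphase-promoting complex, a plain probe set read 755 and 771 in pair 1 and 500 and 801 in pair 3, and the brighter one 1243 and 1218 in pair 1 and 1110 and 1392 in pair 3. The sign changed in pair 1, where the differences were 0.03 and -0.03. Kif11 gave log2 differences of -0.19, -0.05 and 0.38 in pair 1 and 0.46, -0.02 and 0.51 in pair 3 over its 3 probe sets. Kif2c, whose brightest probe set has a suffix for shared probes, differed by 0.78 in pair 3 on that probe set, by 1.01 on another and by -0.05 on its plain one, which read 62.1 and 59.8. Racgap1 gave 0.12 and -0.18 in pair 1 and 0.50 and 0.53 in pair 3. A second Incenp probe set, without the suffix for shared probes, was lower in both knockouts, at 292 and 231 in pair 1 and 402 and 323 in pair 3, where the brighter one differed by 0.00 and -0.02. A second Bub3 probe set read 177 and 147 in pair 1 and 106 and 109 in pair 3, with signs opposite to those of the brighter one.

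Genes of related processes, in lists chosen for this comparison, did not all behave alike. The limma fits called 0 of them, and an unadjusted p under 0.05 was found for 1 regulator of mitotic entry with 6 arrays and, with 5, for 1 S phase gene, 1 kinetochore or spindle gene and 1 regulator of mitotic entry. Of 31 S phase and replication genes, 12 were higher in knockout 1 and 26 in knockout 3 than in the littermate, with median log2 differences of -0.09 and 0.40. Of 22 other kinetochore and spindle genes, 10 and 18 were higher, with medians of -0.03 and 0.35. Of 12 other condensin and cohesin genes, securin (Pttg1) among them, 4 and 9 were higher, with medians of -0.13 and 0.25. Of 13 regulators of mitotic entry, 5 and 10 were higher, with medians of -0.11 and 0.37. These regulators include phosphatases and inhibitory kinases, and also transcription regulators such as Foxm1, Rbl1 and E2f4 and the inhibitor Cdkn1a. The 11 genes of the anaphase-promoting complex are subunits and the activator Fzr1, and the complex also acts in postmitotic neurons. These 11 were near 0, with 6 and 5 higher and medians of 0.02 and -0.01. The differences between these lists were not tested.

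The cell type markers moved beside these values. The 13 rod and photoreceptor markers had the reverse signs, with 9 of 13 higher in knockout 1 than in its littermate (median 0.11) and 2 of 13 in knockout 3 (median -0.26). Their summed signal was 22212 to 36711 in the wildtypes and 23701 and 29406 in knockout 1 and 3. The 5 pigment epithelium markers went the same way as the mitotic genes, with 0 of 5 higher in knockout 1 (median -0.61) and 3 of 5 in knockout 3 (median 0.32). They summed to 4212 and 7123 in knockout 1 and 3, of which Ttr made 2545 and 5311. The 16 progenitor markers were higher in 5 and 10 genes, with medians of -0.09 and 0.11, and the 14 ganglion, amacrine and horizontal cell markers in 5 and 4, with medians of -0.16 and -0.22. The part of cell composition in the pair differences of the mitotic genes was not tested.

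**Figure D5:**
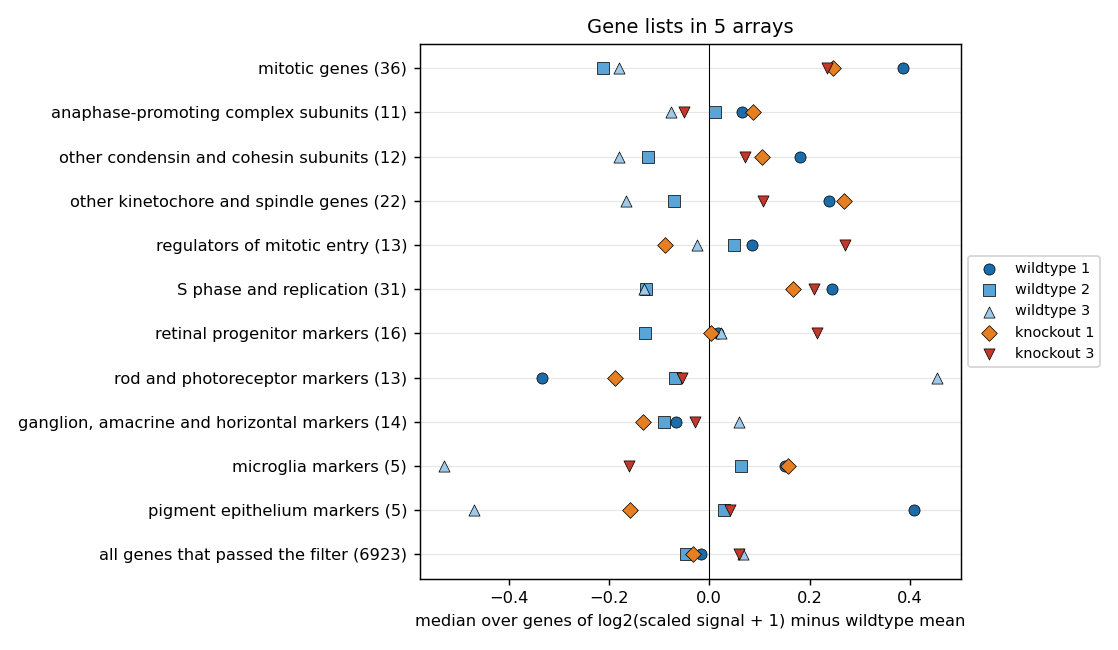
Median over the genes of each list of log2 scaled signal minus the wildtype mean, in the 5 arrays without knockout 2 (number of genes in brackets, lists of at least 5 genes). For mitotic and S phase genes wildtype 1, knockout 1 and knockout 3 lie to the right and wildtype 2 and 3 to the left, whereas for rod markers wildtype 1 is leftmost and wildtype 3 rightmost.

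The 24 measured genes with a CHR in their window were higher in knockout 1 in 3 cases and in knockout 3 in 23, with median log2 differences of -0.18 and 0.43. The 6 measured genes whose window has no CHR (Cks2, Nek2, Mad2l1, Cenpe, Birc5 and Nusap1) were higher in knockout 1 in 3 cases and in knockout 3 in 5, with medians of -0.04 and 0.35. A further 6 measured genes had no window at hand (Ccna2, Aurkb, Incenp, Tpx2, Kif20a and Smc4). They were higher in knockout 1 in 3 cases and in knockout 3 in 3, with medians of -0.05 and 0.23. Over all genes that passed the filter, 47.7% were higher in knockout 1 and 48.8% in knockout 3. With 6 genes in each of the smaller groups, these values are given as a description only.

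In knockout 2 the mitotic genes scattered widely in both directions, with more low than high. Relative to the wildtype mean their log2 median was -0.36 in that array, against 0.07 over all genes that passed the filter. Knockout 2 was the highest of the 6 arrays in 9 of the 36 genes and the lowest in 20. Over all genes that passed it was the highest in 43.9% and the lowest in 42.5%. Ube2c at 8.45, Kif20a at 6.04 and Cdk1 at 30.2 were far below every other array, whereas Incenp at 5831, Mki67 at 3496 and Ndc80 at 345 were far above. Both the scaling of this array and its 3′ to 5′ ratios differ from the rest, and how far its values reflect the tissue was not tested.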

How the data were processed

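RNA of 6 P4 retinas (3 wildtype and 3 nhlh2 knockout mice) was measured on Affymetrix 430A 2.0 arrays. The authors ran MAS 5.0 on the raw data and deposited a linear intensity for every probe set of an array. Of 22690 probe sets, 64 are controls, 20380 are paired with 1 gene symbol in the platform table, 691 with several and 1555 with none listed, and 12377 of 12393 symbols are in RefSeq (GRCm38.p6). The gene groups and tests, the named lists and the rule for named genes were chosen with earlier results of these data known. That rule takes the proliferation markers, the 5 highest and 5 lowest in wildtype, the 3 largest differences each way in pairs 1 and 3 and in the 5-array fit, and genes with probe sets of differing sign that all exceed the median of each wildtype array. Others were named to describe a group.

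Here each array was scaled linearly to the 75th percentile of wildtype 1, and log2(scaled signal + 1) was fitted with limma 3.58.1 in R 4.3.3 (knockout against wildtype, Benjamini-Hochberg over the 11610 probe sets that exceeded the median signal of 3 or more of the 6 arrays). A gene was represented by its brightest probe set. Depth does not apply to arrays, so their number limits the precision. Whether each mouse was pooled from both eyes is not given in the sources used here. The fit was run on simulated data with shifts larger than any fitted difference of the mitotic genes. That run does not show whether differences of the size seen here could be called.

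The pairing comes from the series design. Deviations from the group means of same-numbered arrays correlated at 0.210, -0.135 and 0.0954 in pairs 1, 2 and 3, across genes. Knockout 1 correlated more with wildtype 2 (0.297) and knockout 2 more with wildtype 3 (0.144), while knockout 3 correlated most with wildtype 3. The knockout mean includes knockout 2, the array that stands apart, so its profile weighs on all of these correlations. They therefore cannot decide whether the stated pairs hold. The pair as a replicate block, other scalings (as deposited, trimmed mean, quantile), a constant of 16, other filters and probe set choices, array weights and leaving out each array were alternatives. The counts of genes highest in wildtype 1 and of opposite signs in pairs 1 and 3 were not planned. Neither was that of both knockouts above wildtype 2 and 3. These counts and their alternatives, the wildtype range without wildtype 1 and the brightest plain probe set were chosen after seeing the data.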

Additional observations from a re-analysis of the deposited data

Results flagged for a closer look

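Of the 36 mitotic genes, 25 were lower in knockout 1 than in wildtype 1 and higher in knockout 3 than in wildtype 3, so that the littermate difference had opposite signs in 2 litters. Each litter has 1 mouse of each genotype, and the difference between litters was not tested. The share over all genes was 26%. The knockouts themselves were close, with medians of 0.25 and 0.23 relative to the wildtype mean (log2), while the wildtype littermates stood at 0.39 and -0.18.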

How the results depend on the processing

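No mitotic gene and no probe set was called under any alternative run, including array weights, which gave 1242 probe sets (3 of them used for mitotic genes) at an unadjusted p under 0.05. With the littermate pair as a replicate block, 0 were called with 6 arrays (14 probe sets at an unadjusted p under 0.05) and 0 with 5 (451, of which 2 used for mitotic genes). The blocked 5-array median of the mitotic genes was 0.12, with 30 of 36 higher. This is the same estimate as without wildtype 2, which has no littermate in those arrays, and not a separate check. The 6-array median (-0.06) changed sign with the choice of arrays and weights: it was -1.43 on signals as deposited, 0.19 with array weights and 0.0221 with the mean of all probe sets of a gene, and ran from -0.16 to 0.23 when each array was left out (0.09 without wildtype 1, 0.23 without knockout 2). The 5-array median of 0.23 was -0.0422 on signals as deposited, 0.12 without wildtype 2 and 0.43 without wildtype 1, the ends of its range over arrays left out. On signals as deposited, 5 genes were higher in the knockout of pair 1 and 0 in that of pair 2, and 3 genes had both knockouts above wildtype 2 and 3. The median of pair 2 was -3.99 as deposited, -0.64 with the trimmed mean, -0.52 with quantile normalization and 0.0117 with all probe sets. The number of genes above the array's median in all wildtypes was 22 of 30 with the mean of a gene's plain probe sets (41.2% of all genes) and 25 of 30 with the brightest plain one (46.7% of all genes), and 20 were above the 75th percentile. The count of genes highest in wildtype 1 and that of opposite signs in pairs 1 and 3 stayed within 1.5 times under every scaling, constant and probe set choice, with alternatives chosen after seeing the data.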
